A study of Mus musculus with 16 samples.

Results

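The miR-34 and miR-449 family was examined by small RNA sequencing of prefrontal cortex from 8 PS19 and 8 wild-type (WT) mice. Its 6 members were chosen by name, namely mmu-miR-34a-5p, mmu-miR-34b-5p, mmu-miR-34c-5p, mmu-miR-34b-3p, mmu-miR-34c-3p and mmu-miR-449a-5p (the mouse prefix mmu is left out from here on), and all 6 were found among the 18488 features of the table, of which 1241 were mature miRNAs. PS19 mice (PS19+/-) were heterozygous for a transgene that expresses mutant human tau under the mouse prion protein promoter, and WT mice were their littermates without it, both on a (C57BL/6xC3H)F1 background. Per the study, the mice of these libraries were adults of 1 age, with males and females in equal number, and were perfused before the tissue was frozen. The labels do not give the sex of a library, so genotype was compared over both sexes.

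miRNAs are short RNAs cut from hairpin precursors, and either the 5p or the 3p arm of the hairpin can be loaded onto Argonaute, where the seed, bases 2 to 8, pairs with target mRNAs. The miR-34 genes are textbook targets of the tumour suppressor p53, and miR-34a-5p represses regulators of the cell cycle and of survival. miR-34b and miR-34c are cut from a shared primary transcript, and they and the miR-449 miRNAs are known for high levels in cells with many motile cilia, where they promote ciliogenesis. In brain such cells are the ependyma and the choroid plexus, which lie next to the ventricles and not within the cortex.

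The mature sequences show which members share a seed and which do not. The RefSeq table of GRCm38.p6 matched 5 of the 6 members by name. They are printed 5′ to 3′ with the seed in capitals, the 5p arms before the 3p arms.
mmu-miR-34a-5p: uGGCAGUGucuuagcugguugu
mmu-miR-34b-5p: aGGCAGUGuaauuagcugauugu
mmu-miR-449a-5p: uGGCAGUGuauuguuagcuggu
mmu-miR-34b-3p: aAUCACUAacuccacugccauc
mmu-miR-34c-3p: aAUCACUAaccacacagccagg

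The 3 printed 5p members carried the seed GGCAGUG, as did miR-449c-5p, so that it was found in 4 of the 1679 mature miRNAs listed. The seeds of miR-34c-5p and miR-449b were not read here. Aligned from base 1 without gaps, miR-34a-5p and miR-449a-5p were identical over their leading 9 bases and at 15 of 22 positions, and miR-34a-5p and miR-34b-5p were identical over bases 2 to 9 and, with no gap allowed for the longer miR-34b-5p, at 11 of 22. The 3p arms miR-34b-3p and miR-34c-3p had another seed, AUCACUA, shared by these 2 miRNAs alone among the 1679, and they were identical at 17 of 22 positions in the same way. The printed 5p members thus share a seed that the 3p arms do not have.

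The members came from 3 loci in the GRCm38 build. Mir34a lay at chr4:150068454-150068555 on the plus strand, inside no other gene of GENCODE release M21. Mir34b (chr9:51103562-51103645) and Mir34c (chr9:51103034-51103110) lay on the minus strand side by side, within an intron of Btg4, a protein-coding gene of the opposite strand. Mir449a (chr13:113037534-113037624, plus strand) lay in an intron of Cdc20b on the same strand, together with Mir449b, 35 bases upstream, and Mir449c farther upstream.

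Depth and sample groups bear on all the values that follow. Whole reads recovered from the table totalled 13.2 M to 23.1 M per library, and mature miRNAs held 14.8% to 32.0% of the signal. The library code in the labels began with G in all 8 PS19 and 2 WT libraries, with F in 4 WT and with A in 2 WT, and what the letter marks was not stated. The marker miRNAs of neurons had summed normalized counts from 195784 to 784057, and those of microglia and leukocytes were near 0, from 2.83 to 15.7. Most of the neuron sum was miR-128-3p, with means of 506408 in PS19 and 466399 in WT. Another neuron marker, miR-137-3p, averaged 45.7 in PS19 and 54.0 in WT. Markers of the choroid plexus (miR-204-5p, miR-211-5p and miR-448-3p) were present in all libraries, and their sum was highest in PS19 replicate 3 (6777 normalized counts) and WT replicate 3 (4325), against group medians of 1444 and 1264, respectively. Most of this sum was miR-204-5p, at 6592 and 4144 in these 2 libraries. miR-448-3p was highest in the same 2 libraries, but miR-211-5p was highest in PS19 replicate 7 and WT replicate 5. In bulk tissue, fewer cells of a type and less of an RNA per cell cannot be told apart.

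The levels of the members spanned more than 2 orders of magnitude on the scale of normalized counts. miR-34a-5p averaged 707.9 normalized counts over the 16 libraries and ranked 142 among the 1241 mature miRNAs. miR-34c-5p followed at 523.0, at rank 149. The remaining arms of the miR-34b and miR-34c hairpins were lower, with means of 90.8 for miR-34c-3p, 56.7 for miR-34b-3p and 44.9 for miR-34b-5p. miR-449a-5p averaged 3.75, at rank 554. The printed members differ by at most 1 base in length, so that normalized counts of mature miRNAs can be set side by side, although ligation efficiency also differs between sequences.

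**Figure D1:**
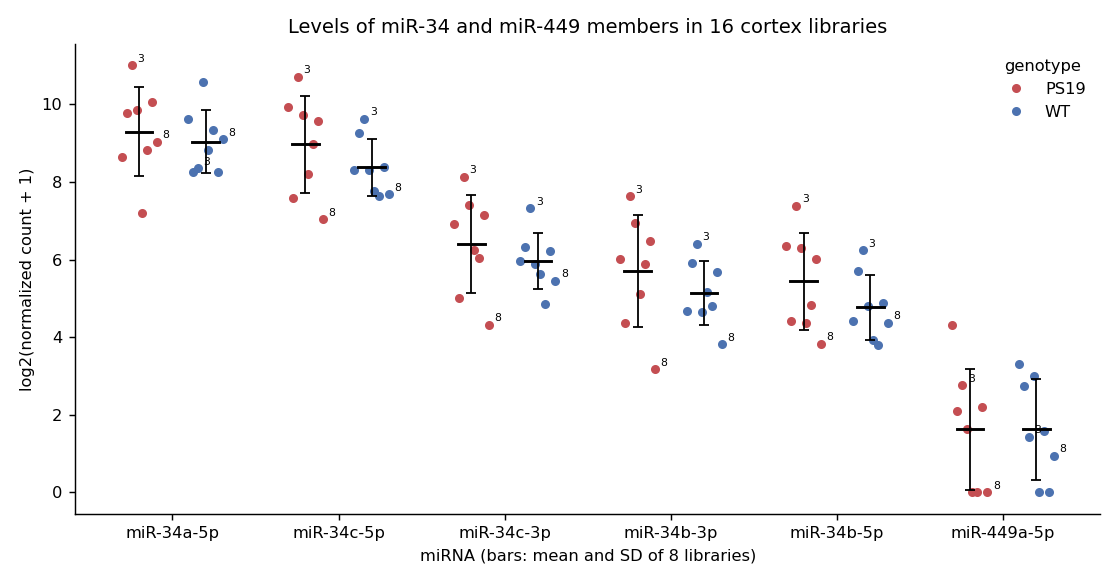
Log2(normalized count + 1) of the 6 members in the 8 PS19 (red) and 8 WT (blue) libraries, with the mean and SD of each group as bars and replicates 3 and 8 numbered. The groups overlap for every member, the 4 arms of miR-34b and miR-34c are highest in replicate 3 of either genotype, and miR-449a-5p lies at 0 in 5 libraries.

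Neighbours in this order were compared within libraries by exact sign-flip tests on the log2 ratio of their values (two-sided, 5 comparisons). miR-34a-5p and miR-34c-5p could not be ranked, since miR-34a-5p was higher in 10 of 16 libraries (p = 0.130, adjusted p = 0.130). miR-34c-5p exceeded miR-34c-3p by 5.62-fold, and miR-34c-3p exceeded miR-34b-3p by 1.70-fold, each in 16 of 16 libraries with p = 3.05e-05, the smallest value the test can give, and an adjusted p of 5.09e-05. miR-34b-3p and miR-34b-5p differed by 1.24-fold, which did not pass after adjustment (p = 0.0461, adjusted p = 0.0576, higher in 11 of 16). miR-34b-5p exceeded miR-449a-5p by 11.1-fold on the value + 1 scale, again in 16 of 16 libraries.

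Genotype was then compared for each member, to ask whether this p53-linked family differs in abundance with tauopathy. No member passed the test between PS19 and WT. Of the 6, 5 passed the filter of a mean of at least 5 normalized counts, and 0 of these 5 had an adjusted p under 0.05 in limma, the smallest being 0.9998. Over the whole table, 0.0% of the 6024 features tested passed an adjusted and 4.0% an unadjusted p under 0.05, and 0 of the 5 members had an unadjusted p under 0.05. The difference was above 0 for 5 of the 5 members and for 46.8% of all features, but 4 of these members come from a single transcript and their values move together, so that this count is not a count of separate observations. The edgeR and DESeq2 tests on recovered reads also gave 0 of the 5 members at an unadjusted p under 0.05, where they had 4.4% and 4.7% of all features, and 0 at an adjusted p, where they had 0.0% and 0.249%. Differences are on the scale of log2(value + 1), on which low features appear to change less than they do.

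miR-34a-5p, the family member most closely tied to p53, had normalized counts from 145.5 to 2057 with a median of 697.9 in PS19, and from 305.5 to 1518 with a median of 499.3 in WT. The highest PS19 library was replicate 3 and the lowest replicate 5, and WT replicate 4 stood above all other WT libraries, so that the genotypes overlapped over nearly their whole range. The log2 difference of PS19 from WT was 0.25 ± 0.43 (SE, n = 8 and 8, 95% CI -0.63 to 1.14), with p = 0.557 in limma and p = 0.614 in the two-sided exact permutation test over all assignments of 8 and 8 libraries. The direction did not hold, since the log2 difference was 0.01 without PS19 replicate 3 and -0.09 without both libraries numbered 3.

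miR-34c-5p, the major product of the miR-34b and miR-34c transcript, ranged from 130.9 to 1680 normalized counts with a median of 629.1 in PS19, and from 200.1 to 790.4 with a median of 317.9 in WT. PS19 libraries lay on both sides of the WT range, with 3 above the highest and 2 below the lowest WT library. The log2 difference was 0.59 ± 0.44 (SE, n = 8 and 8, 95% CI -0.33 to 1.51), with p = 0.197 in limma and p = 0.271 in the exact permutation test.

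miR-34b-5p, which also carries the seed GGCAGUG, had the largest difference of the members in limma. Its normalized counts ran from 13.2 to 166.4 with a median of 45.9 in PS19 and from 13.0 to 74.4 with a median of 23.8 in WT, and 3 PS19 libraries exceeded the WT range. The log2 difference was 0.67 ± 0.46 (SE, n = 8 and 8, 95% CI -0.29 to 1.62), with p = 0.160 in limma and p = 0.224 in the exact permutation test.

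The 3p arms behaved similarly. miR-34b-3p lay between 8.05 and 196.7 normalized counts in PS19 (median 61.0) and between 13.1 and 83.8 in WT (median 30.9), with a log2 difference of 0.56 ± 0.50 (SE, n = 8 and 8, 95% CI -0.48 to 1.61, limma p = 0.274, exact permutation p = 0.352). miR-34c-3p lay between 19.0 and 280.6 in PS19 (median 97.0) and between 28.0 and 159.1 in WT (median 59.9), with a log2 difference of 0.45 ± 0.45 (SE, n = 8 and 8, 95% CI -0.48 to 1.38, limma p = 0.326, exact permutation p = 0.397). For both arms the lowest of all 16 libraries was PS19 replicate 8 and the highest PS19 replicate 3. The intervals of the 5 members hold changes from a modest decrease to an increase of more than 2-fold, and a p that misses the threshold does not show that the genotypes were alike.

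**Figure D2:**
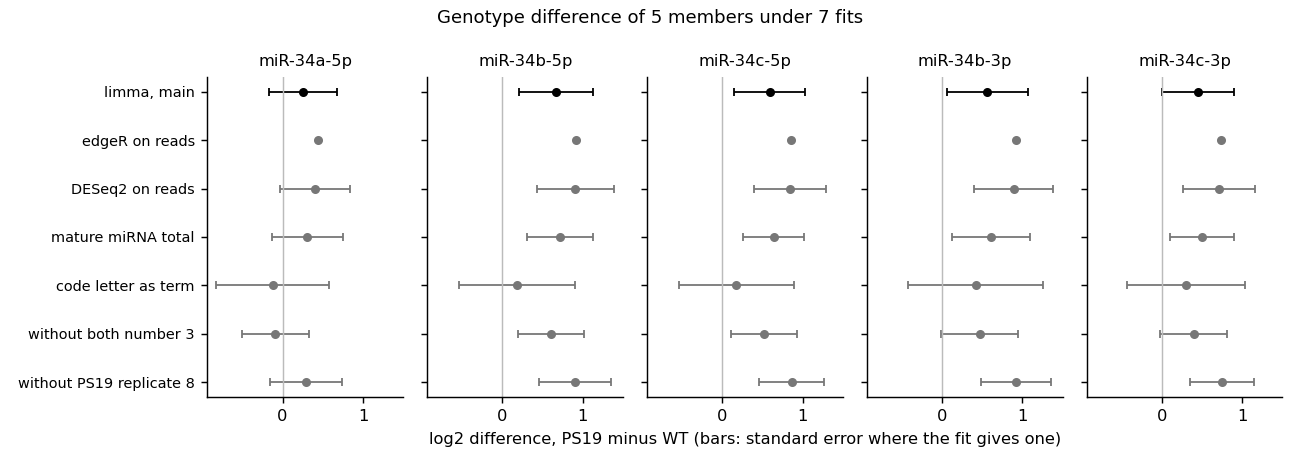
Log2 difference of PS19 from WT with its standard error for 5 members (panels) under 7 fits (rows), edgeR giving no standard error. All points of the miR-34b and miR-34c arms lie above 0, most with bars reaching close to or across it, while miR-34a-5p changes side when the code letter is a term (-0.12) or both libraries numbered 3 are left out (-0.09).

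The differences of the miR-34b and miR-34c arms varied when single libraries were left out, and were smaller among the libraries of code letter G. Without PS19 replicate 8, 2 members had an unadjusted p under 0.05 in limma, against 5.1% of all features in the same fit, and 0 passed after adjustment. They were miR-34c-5p, with a log2 difference of 0.86 (limma p = 0.0442, exact permutation p = 0.0870), and miR-34b-3p, with 0.92 (limma p = 0.0448, exact permutation p = 0.0873). Without PS19 replicate 3, the log2 difference of miR-34b-3p was 0.29 and that of miR-34c-5p 0.34. Among the libraries whose code begins with G, 8 PS19 against 2 WT, the log2 differences came to 0.18 for miR-34c-5p and miR-34b-5p, 0.30 for miR-34c-3p and 0.42 for miR-34b-3p, with p from 0.616 to 0.810 in limma. The letters F and A hold WT libraries only, so letter and genotype are in part confounded. With 2 WT libraries of letter G, a dependence on the letter cannot be shown.

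miR-449a-5p, which carries the same seed as miR-34a-5p, was too sparse for the fit. Its normalized counts ran from 0 to 18.9 with a median of 2.69 in PS19 and reached 8.97 with a median of 1.86 in WT, and it had 0 to 13 reads per library, 53 in all. Reads were seen in 5 of 8 PS19 and 6 of 8 WT libraries. PS19 replicate 1 alone held 13 of these reads. In the 5 libraries with no read, a count of 0 allows up to 3 reads, or 2.12 to 2.95 normalized counts, which covers counting error only. The log2 difference was -0.005 (exact permutation p = 0.997), so no difference was detectable at this depth.

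The other rows of the 3 loci were looked for as well, and 7 of 11 names were listed. The precursor row of miR-34c alone passed the filter. It had 2 to 23 reads per library and a log2 difference of 0.59 ± 0.43 (SE, n = 8 and 8, limma p = 0.183, exact permutation p = 0.216). The precursor rows of miR-34a and miR-34b averaged 3.06 and 1.16 normalized counts. miR-34a-3p, the passenger arm of miR-34a, had 1 read in all 16 libraries together against 11499 for miR-34a-5p. miR-449a-3p, miR-449b and miR-449c-5p had 2, 6 and 2 reads in all, so that the miR-449 cluster was barely seen in this tissue. The 7 rows had a median log2 difference of 0.14, a value that rests mostly on rows with a few reads and is that of miR-449c-5p with its 2 reads. The median of -0.02 over all features tested covers only features that passed the filter, so it is not of a like set.

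The make-up of the 5p members was described as the share of each in their summed normalized counts. miR-34a-5p made up 27.0% to 80.3% in PS19 with a median of 51.2%, and 27.3% to 81.2% in WT with a median of 67.7%. It held more than 50% in 4 of 8 PS19 and 5 of 8 WT libraries, and most of the remainder was miR-34c-5p, with medians of 44.4% in PS19 and 30.0% in WT. miR-34b-5p stayed between 1.45% and 6.25% throughout. Which member leads therefore varied from mouse to mouse within either genotype.

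**Figure D3:**
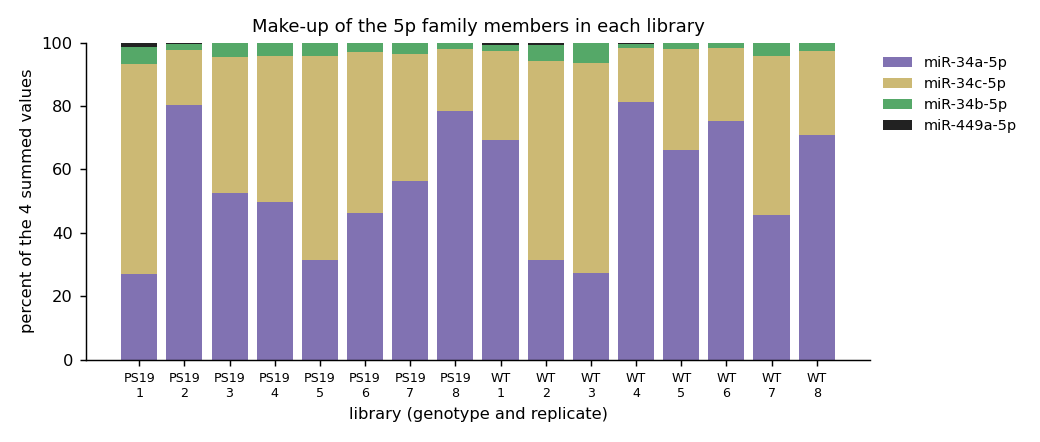
Share of miR-34a-5p, miR-34c-5p, miR-34b-5p and miR-449a-5p in the sum of their normalized counts, as stacked bars in percent for each of the 16 libraries. The miR-34a-5p share runs from 27.0% in PS19 replicate 1 to 81.2% in WT replicate 4, with a wide range in both genotypes.

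Ratios between members were taken within each library, and 6 of them were compared between genotypes by two-sided exact permutation tests on the log2 ratio of value + 1. The size factor of a library enters these ratios through the added 1, which weighs on the ratio of miR-449a-5p to miR-34c-5p in the libraries where miR-449a-5p was at 0. None passed, with p from 0.354 to 0.720 and an adjusted p of 0.720 for each of the 6. The ratio of miR-34c-5p to miR-34a-5p had a mean log2 of -0.33 ± 1.25 over the 8 PS19 and -0.66 ± 1.31 over the 8 WT libraries (± SD), a spread of 0.209 to 2.44 in linear terms. By contrast the ratio of miR-34b-5p to miR-34c-5p was narrow, at a log2 of -3.53 ± 0.33 for PS19 against -3.61 ± 0.22 for WT (± SD, n = 8 each). miR-34b-3p was below miR-34c-3p in 16 of 16 libraries, with a log2 ratio of -0.71 ± 0.34 for PS19 against -0.82 ± 0.54 for WT (± SD, n = 8 each).

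The use of the arms is described for the neighbouring hairpins, a comparison chosen after the values were seen and given with no test. In miR-34c the 5p arm exceeded the 3p arm in 16 of 16 libraries, by 3.92-fold to 8.06-fold. In miR-34b the 5p arm exceeded the 3p arm in 5 of 16 libraries, with ratios from 0.427 to 1.57. The arm ratio of miR-34c was 6.98 times that of miR-34b, and higher in every one of the 16 libraries, by 3.19-fold at the least and 15.7-fold at the most. Its log2 was 2.82 in PS19 and 2.79 in WT.

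**Figure D4:**
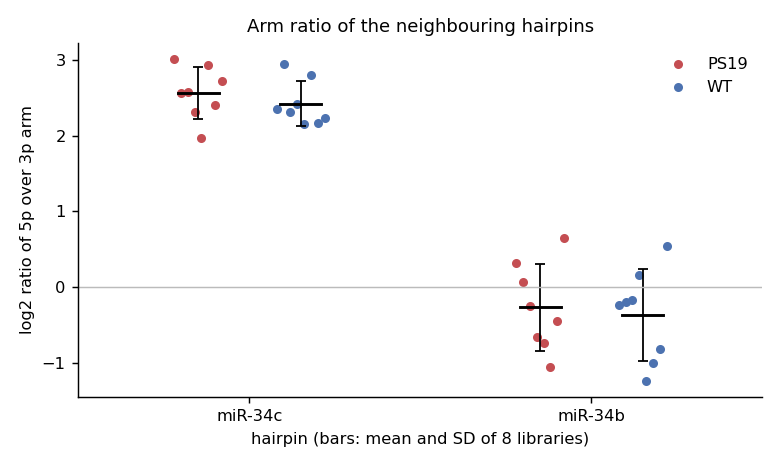
Log2 ratio of the 5p over the 3p arm for the miR-34c and miR-34b hairpins in the 8 PS19 (red) and 8 WT (blue) libraries, with the mean and SD of each group as bars and a line at 0, where both arms are equal. All 16 miR-34c points lie between 1.97 and 3.01, above every miR-34b point.

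The 4 arms of miR-34b and miR-34c varied together over the mice. For the 6 pairs among them, Pearson's r on the log2 scale ranged from 0.87 to 0.97 over the 16 libraries (permutation p from 1e-05, the smallest 100000 permutations can give, to 2e-05, adjusted p from 3e-05 to 5e-05 over 15 pairs of members). Spearman's rho ranged from 0.84 to 0.95 (permutation p from 1e-05 to 0.00011, adjusted p at most 0.00027). Without the 2 libraries farthest from the median, r was 0.84 to 0.95. Within PS19 it was 0.92 to 0.98 and within WT 0.74 to 0.97, and among the 10 libraries whose code begins with G it was 0.92 to 0.97. When libraries were scaled to their totals in place of the deposited size factors, r was 0.85 to 0.96. No row outside the mature miRNAs and the loci had an r of 0.99 or more with any of the 5 tested members, so that rows of near-identical values, as reads counted under several features would give, were not found among those rows. Reads shared between mature miRNAs or with the precursor rows of the loci were not looked for in this way.

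The correlation of miR-34a-5p with these arms did not pass the test. Its r with each of the 4 was 0.18 to 0.30 (permutation p from 0.254 to 0.510, adjusted p from 0.346 to 0.510), rho was 0.02 to 0.14 (permutation p from 0.602 to 0.944), and r was -0.16 to -0.08 without the 2 libraries farthest from the median. The values within genotype were 0.41 to 0.62 in PS19 and -0.67 to -0.44 in WT, and this difference was not tested. For miR-449a-5p the r with the other 5 members was 0.28 to 0.52 (adjusted p from 0.0882 to 0.373), values that rest on few reads. It was 0.15 to 0.40 with libraries scaled to their totals, and 0.02 to 0.25 with libraries scaled to their mature miRNA totals.

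**Figure D5:**
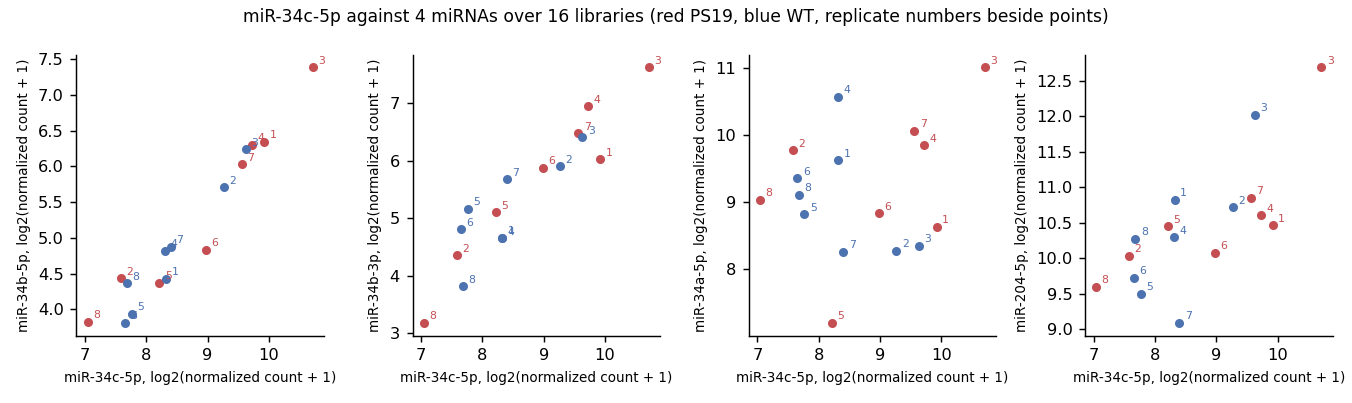
Log2(normalized count + 1) of miR-34b-5p, miR-34b-3p, miR-34a-5p and miR-204-5p (y axes) against that of miR-34c-5p (x axis) in 16 libraries, PS19 in red and WT in blue, with replicate numbers beside the points. miR-34b-5p and miR-34b-3p lie along a line with miR-34c-5p (r = 0.97 and 0.93), miR-34a-5p does not (r = 0.23), and miR-204-5p is highest in replicate 3 of both genotypes.

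The spread between mice was wide for all 5 tested members. Their SD within genotype was 0.99 to 1.18 on the log2 scale, against a median of 0.71 over the 521 mature miRNAs with a mean of at least 5, and it lay at percentiles 87.3 to 94.2 of these. The SD of miR-34c-5p was 1.26 in PS19 and 0.73 in WT, and that of miR-34a-5p was 1.15 and 0.80. PS19 had the larger SD for each of the 5 members, but the miR-34b and miR-34c arms among them come from a single transcript and vary together. These are therefore not separate observations. The share of all features with a larger SD in PS19 was not taken, and the difference in spread was not tested.

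The miRNAs whose pattern over the 16 libraries was most like that of each member were taken from 377 mature miRNAs outside the family with a mean of at least 20, by Spearman's rho, as a description. For miR-34a-5p these were miR-195a-5p, a relative of miR-15 and miR-16 (rho 0.76), its partner arm miR-195a-3p (0.68) and miR-674-5p (0.66). The miR-34b and miR-34c arms had other partners. miR-331-3p (rho 0.76 to 0.84) and miR-375-3p, known from pancreatic islets and other endocrine cells (0.74 to 0.85), were among the leading 3 for all 4 arms. The remaining place went to miR-338-5p, from the hairpin of an oligodendrocyte miRNA, for miR-34b-5p and miR-34c-5p (0.76 each), to miR-10a-5p, encoded in a Hox cluster, for miR-34b-3p (0.68), and to miR-204-5p for miR-34c-3p (0.76). Within genotype, rho was higher in PS19 than in WT for several of these pairs and lower for others. It was higher at 0.98 and 0.24 for miR-10a-5p with miR-34b-3p, 0.98 and 0.52 for miR-204-5p with miR-34c-3p, and 0.93 and 0.52 for miR-338-5p with miR-34b-5p. It was lower at 0.67 and 0.95 for miR-375-3p with miR-34b-3p, and 0.62 and 0.67 for miR-375-3p with miR-34c-3p. With miR-34a-5p it was lower at 0.57 and 0.79 for miR-674-5p, and 0.62 and 0.71 for miR-195a-3p. These differences were not tested. None of these miRNAs had an unadjusted p under 0.05 between genotypes in limma.

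The miRNAs known from the choroid plexus and other ciliated epithelium were set beside the miR-34b and miR-34c arms by Spearman's rho over the 16 libraries, as a description. miR-204-5p, abundant in choroid plexus, lay between 773.1 and 6592 normalized counts in PS19 and between 543.2 and 4144 in WT, and its rho with the 4 arms was 0.61 to 0.76. miR-1298-5p, the most abundant of the list, lay between 142.9 and 12296 in PS19 and between 262.4 and 8530 in WT, with a rho of 0.61 to 0.75 with the 4 arms and 0.03 with miR-34a-5p. Both were highest in replicate 3 of either genotype, the libraries where the miR-34b and miR-34c arms were also highest. This peak was not particular to the choroid plexus. PS19 replicate 3 also had the highest PS19 sum for the markers of neurons, oligodendrocytes and endothelium. In WT the sums of neurons and oligodendrocytes peaked in replicate 1 and that of endothelium in replicate 4. The summed p53-linked miRNAs, described below, were highest in replicate 3 of both genotypes. Of the other list members tested, miR-448-3p, a choroid plexus marker, had a rho of 0.56 to 0.74 with the 4 arms, miR-1912-3p 0.71 to 0.83, miR-204-3p 0.40 to 0.59 and miR-1264-3p 0.39 to 0.57. miR-211-5p, also a choroid plexus marker, had a rho of -0.02 to 0.07. The epithelial miRNAs of the list gave values below 0, from -0.30 to -0.10 for miR-200a-3p, -0.21 to -0.05 for miR-200b-3p and -0.30 to -0.13 for miR-429-3p. Markers of other cell types gave values in part as high, with a rho of 0.47 to 0.64 for miR-219a-2-3p and 0.39 to 0.56 for miR-338-3p of oligodendrocytes, and 0.40 to 0.55 for miR-138-5p and 0.28 to 0.53 for miR-124-3p of neurons. The other markers of these cells gave 0.27 to 0.32 for miR-219a-5p, 0.19 to 0.36 for miR-128-3p and 0.24 to 0.44 for miR-137-3p. The endothelial markers gave 0.15 to 0.29 for miR-126a-3p and 0.14 to 0.32 for miR-126a-5p. With libraries scaled to their total, the rho was 0.49 to 0.66 for miR-204-5p, 0.49 to 0.65 for miR-1298-5p and 0.44 to 0.57 for miR-448-3p. On the same scale it was 0.24 to 0.53 for miR-338-3p, 0.22 to 0.46 for miR-219a-2-3p, 0.17 to 0.29 for miR-138-5p and 0.16 to 0.41 for miR-124-3p. Apart from miR-204-5p and miR-1298-5p, the miRNAs of this paragraph were named after their values were seen. All 12 miRNAs of the list were in the table and none was at 0 in every library. Their summed level was between 1426 and 20045 in PS19 and between 1068 and 13794 in WT. Of the 10 tested, 0 passed an adjusted or an unadjusted p under 0.05 in limma, beside 0.0% and 4.0% of all features, and 5 were higher in PS19, beside 46.8% of all features. Their median log2 difference was 0.08, beside -0.02 over all features. Without both libraries numbered 3, the log2 differences of the miR-34b and miR-34c arms were 0.40 to 0.60, with p from 0.158 to 0.348 in limma. The part of choroid plexus RNA in the miR-34b and miR-34c levels was not tested.

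Other miRNAs linked to p53 did not pass the test either. Of 13 such miRNAs outside the family, 12 were in the table and 9 were tested, with 0 at an adjusted or an unadjusted p under 0.05 in limma, beside 0.0% and 4.0% of all features. They include miR-143-3p, which matures with the help of p53 in the Drosha complex, and miR-22-3p. Of the 9, 1 was higher in PS19 (miR-215-5p, named after its value was seen), beside 46.8% of all features. The median log2 difference of the list was -0.12, beside -0.02 over all features, and 0.01 without PS19 replicate 8. miR-143-3p, the most abundant of them, averaged 19485 ± 6867 normalized counts in PS19 against 26937 ± 9634 in WT (± SD, n = 8 each), a log2 difference of -0.44 ± 0.27 (SE, limma p = 0.123, exact permutation p = 0.163). miR-22-3p averaged 1086 ± 440.5 in PS19 against 1155 ± 423.3 in WT (± SD, n = 8 each), a log2 difference of -0.09 ± 0.30 (SE, limma p = 0.769, exact permutation p = 0.786).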

How the data were processed

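Small RNA from about 10 mg of prefrontal cortex was sequenced by the authors and assigned to annotated ncRNAs with COMPSRA, a small RNA pipeline that runs STAR. The submitters' processing notes name STAR 2.5.3a, DESeq2 1.42.1 and mm10. The deposited values were a normalized signal, read counts divided by 1 size factor per library. The authors also deposited log2 fold changes, standard errors, a Wald score, mean signal and p-values of their own comparison, which were not used. No per-library column was left out (0). Dividing a library's values by its smallest value above 0 gave whole numbers for 100% of them (tolerance 0.01), which were taken as its reads. In WT replicates 4 and 6, 1 read is worth nearly 1, which makes this weaker evidence.

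Values were transformed as log2(value + 1), and limma 3.58.1 (R 4.3.3, lmFit and eBayes with trend, genotype only) was fitted to the 6024 features with a mean of at least 5, with Benjamini-Hochberg adjustment over all of them. Single measures were compared by exact permutation with scipy 1.17.1 and numpy 2.4.6 under Python 3.11.15. Confidence intervals used the moderated error. edgeR 4.0.16 and DESeq2 1.42.0 were run on recovered reads as alternatives. The fit was tested on simulated data. The labels name 16 samples of 8 and 8, and the chi-square of recovered reads per degree of freedom was 43.5 to 569.9 over the 56 pairs within a group, so every library counted as 1 sample. Reads carry no molecular identifiers, so limits from counts cover counting error only.

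The members and lists were chosen with earlier results of these data known. Rows named in the text are the members, the other rows of their loci, the 3 mature miRNAs most like each member with a mean of at least 20, and in each list the 2 most abundant miRNAs and any with an unadjusted p under 0.05. A few others were named after their values were seen, as stated beside them. Sequences and positions are from RefSeq (GRCm38.p6) and GENCODE M21, the same build as mm10. Plasma libraries were not used here.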

Additional observations from a re-analysis of the deposited data

Results flagged for a closer look

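In each group of 8 libraries, the highest and the lowest value were examined for a gap to the next library past Dixon's 95% limit for 8 values, a share of the whole range, over 30 sets of values, of which 5 met this limit, each with its highest value. The limit flags about 1 in 20 sets by chance where values are normal and sets separate, whereas these counts are skewed and the arms vary together, so the number was not compared with chance. miR-34a-5p in WT replicate 4 stood at 1518 normalized counts with the next WT library at 786.7 (gap 0.603 of the range). miR-34b-5p in PS19 replicate 3 stood at 166.4 with the next at 80.1 (gap 0.563). miR-34c-3p in WT replicate 3 stood at 159.1 with the next at 78.9 (gap 0.612), and the precursor row of miR-34b in the same library at 4.28 with the next at 2.01 (gap 0.530). miR-449a-5p in PS19 replicate 1 stood at 18.9 with the next at 5.79 (gap 0.694).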

How the results depend on the processing

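No member passed an adjusted p under 0.05 in limma under any of the alternatives run (0 in each), and no ratio differed (0 in each). The number of members with an unadjusted p under 0.05 ranged from 0 to 2 with each of the 16 libraries left out in turn, the 2 being without PS19 replicate 8. The order of the 6 mean levels held in each of these. The fit with the code letter as a term and the fit within letter G give the same estimate, as only letter G holds both genotypes. The log2 difference of miR-34a-5p turned to -0.12 in both, and to -0.0886 without both libraries numbered 3, a setting added after the data were seen. That of miR-449a-5p was 0.0468 with a pseudocount of 5, -1.25 within letter G (exact permutation p = 0.311), and -0.39 to 0.24 with each library left out. The other 4 members stayed above 0, from 0.18 to 0.92 over the alternatives. edgeR and DESeq2 on the 6024 features gave these 4 log2 differences of 0.71 to 0.92 with unadjusted p from 0.0577 to 0.113, and DESeq2 on all listed features, added after the data were seen, p from 0.0538 to 0.108, beside 4.4% (edgeR) and 4.7% (DESeq2) of the 6024 under 0.05. With each library left out, log2 differences ran from -0.0244 to 0.24 for the ratio of the miR-34b arms and from -0.0031 to 0.22 for that of miR-34b-3p to miR-34c-3p, and the medians from -0.26 to 0.01 for the p53 list and -0.08 to 0.22 for the choroid plexus list. The arm-use log2 ratio stayed between 2.70 and 2.88. The replicate numbers were not taken as pairs, since the labels tie them to no shared animal, litter or day and the correlation of deviations was over 0.1 for 6 and not all of the 8 numbers. All 8 correlations were above 0 (0.0446 to 0.456), and 2 of 8 libraries correlated best with their own number. The replicate block raised the features with an unadjusted p under 0.05 from 241 to 419. With it, 0 members passed either threshold in limma, the smallest p being 0.0506 for miR-34b-5p. Depth limits miR-449a-5p and the precursor rows, at 0 to 23 reads per library.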
